A study of Rattus norvegicus with 12 samples.

Results

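The DNA replication genes described here are 49 listed genes for the licensing and synthesis machinery, measured in cultured neonatal ventricular cardiomyocytes of Wistar rats. Members were taken by symbol, as probe sets annotated to 1 gene only, with the brightest probe set kept where a gene had several. A probe set was found for 45 of the 49, among 14497 genes with such a probe set in all, and Mcm3, Mcm4, Dbf4 and Pole2 were not analysed here. Of the 45, 44 lay above the intensity filter and were tested among 10025 genes. Slbp, below it, is described from a fit with no filter. The list holds genes by their function and was drawn up with earlier results of these data known.

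The study compared 4 groups of 3 Affymetrix arrays each: cultures with no virus (control), and cultures transduced with an adenovirus for mef2Cγ+ (γ+), for mef2Cγ- (γ-) or for mef2Cγ+23/24 (23/24). MEF2C is a transcription factor of muscle and heart, and by its title the study concerns a transition between MEF2C isoforms, with a repressor variant, in heart failure; the labels do not say what 23/24 denotes. All groups, control included, were plated for 44 h in medium with serum and then kept for 24 h without serum, and the labels name no empty adenovirus. The labels call the 3 arrays of a group biological replicates without saying whether they came from separate cell isolations, so p-values measure the spread between these arrays only.

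Before a cell can copy its DNA, the origin recognition complex (ORC) marks the origins, and Cdc6 and Cdt1 load the ring-shaped MCM2-7 helicase there, a step called licensing. In S phase the kinase Cdc7, with Mcm10, Cdc45 and the GINS complex, turns the loaded rings into active helicases, and primase, the DNA polymerases, the PCNA clamp and its loader RFC then copy the strands. Many of these genes are textbook targets of the E2F transcription factors, and cardiomyocytes largely leave the cell cycle soon after birth.

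Values are log2 intensities, taken as such from their range of 1.09 to 13.89, with array medians of 5.33 to 5.53. They are not comparable between probe sets, so each gene is compared only with itself across arrays. Over all 28826 probe sets, those below the filter included, the difference between 2 arrays of a group had an SD of 0.200 to 0.293 log2 units. Marker levels therefore do not give the share of any cell type. Cardiomyocyte markers, among them the troponin T gene Tnnt2, averaged 11.64 to 11.68 over the 10 genes on the control arrays. Fibroblast markers (9 genes, 9.60 to 9.62), smooth muscle markers (5 genes, 9.78 to 9.83), endothelial markers (6 genes, 6.46 to 6.50) and macrophage markers (8 genes, 5.55 to 5.59) were measured there as well. Exactly equal deposited values for a probe set occurred in each of the 21 pairs of arrays within 3 sets (control with 23/24, γ+ alone, γ- alone), 27 to 111 probe sets a pair, and in 0 of the 45 pairs across sets. Whether the 3 sets were normalized separately is not stated in the sources used here. For every comparison other than 23/24 with control, set and vector cannot be told apart.

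The promoters of these genes are described first, because E2F binding sites near the start of transcription are what many of them are known to share. They were searched after the expression differences were computed. RefSeq promoters (GRCr8, 250 bases before to 50 after the start) were found for 39 of the 45 measured genes by symbol, and not for Orc1, Orc4, Cdc6, Gins4, Rpa3 and Rrm2. An E2F word (TTTGGCGC, TTTCGCGC, TTTGCCGC or TTTCCCGC, on either strand) stood in 18 of the 39 promoters, 46.2%, against 4.01% of the 8319 promoters of tested genes and 2.14% of all 33469 promoters in the table. In 11 genes a whole word lay before the start, and in 13 a word was centred within 60 bases of the start. The CCAAT box, searched as CCAAT on both strands, stood in 21 of 39 (53.8%, against 37.9% of those of tested genes and 37.5% of all promoters), and the cell cycle homology element, TTTGAA or TTCGAA, in 7 of 39 (17.9%, against 13.1% of those of tested genes and 19.7% of all promoters). The MEF2 element, the site MEF2 proteins bind, was found in 0 of the 39 windows, against 1.41% of those of tested genes and 3.29% of all promoters. With shares this low, 0 of 39 does not show that the element is rarer in these genes. One E2F word overlapped another of these motifs, a CCAAT box in Mcm7.

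The 150 bases before the start are printed below for 8 genes, 5′ to 3′, with E2F words in capitals. They are the 4 measured MCM2-7 genes, Gins1 and Tyms, which hold words there. Orc3, which also holds one and fell under γ+, and Prim2, which holds none in its window, follow. In Mcm2, Mcm6 and Gins1 the capitals run together because words on the 2 strands overlap. The stretches lie at chr4:122918095-122918244 (minus strand, Mcm2), chr19:13488663-13488812 (plus, Mcm5), chr13:42404353-42404502 (minus, Mcm6), chr12:22163179-22163328 (minus, Mcm7), chr3:160184770-160184919 (plus, Gins1), chr9:120776084-120776233 (minus, Tyms), chr5:53977795-53977944 (minus, Orc3) and chr9:43400455-43400604 (minus, Prim2).
Mcm2: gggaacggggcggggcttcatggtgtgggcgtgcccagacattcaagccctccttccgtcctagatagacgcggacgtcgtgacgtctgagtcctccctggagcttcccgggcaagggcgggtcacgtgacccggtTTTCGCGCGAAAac
Mcm5: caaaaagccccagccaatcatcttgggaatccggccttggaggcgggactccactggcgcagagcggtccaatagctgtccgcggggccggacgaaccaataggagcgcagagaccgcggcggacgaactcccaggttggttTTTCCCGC
Mcm6: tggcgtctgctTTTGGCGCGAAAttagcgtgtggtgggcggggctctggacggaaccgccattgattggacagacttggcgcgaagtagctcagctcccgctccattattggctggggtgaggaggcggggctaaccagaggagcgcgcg
Mcm7: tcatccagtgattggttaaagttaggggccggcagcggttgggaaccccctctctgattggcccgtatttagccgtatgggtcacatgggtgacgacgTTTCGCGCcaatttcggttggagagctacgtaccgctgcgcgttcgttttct
Gins1: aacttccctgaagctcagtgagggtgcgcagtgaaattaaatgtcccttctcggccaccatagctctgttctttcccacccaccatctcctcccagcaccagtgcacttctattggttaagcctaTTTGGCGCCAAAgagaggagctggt
Tyms: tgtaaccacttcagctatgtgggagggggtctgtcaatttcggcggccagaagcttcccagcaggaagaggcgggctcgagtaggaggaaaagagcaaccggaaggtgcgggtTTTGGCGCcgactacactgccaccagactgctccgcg
Orc3: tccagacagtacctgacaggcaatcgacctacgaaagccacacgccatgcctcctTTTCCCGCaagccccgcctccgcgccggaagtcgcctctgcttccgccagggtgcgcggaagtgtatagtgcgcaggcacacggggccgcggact
Prim2: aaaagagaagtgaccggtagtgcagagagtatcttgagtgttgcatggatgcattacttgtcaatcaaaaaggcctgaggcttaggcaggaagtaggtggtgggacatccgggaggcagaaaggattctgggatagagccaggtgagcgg

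Nearly all of the replication machinery was higher in γ+ cultures than in untreated ones. Of the 44 genes tested, 41 rose, 1 (Orc3) fell and 2 (Orc4 and Orc5) were not called. A gene was called when limma's Benjamini-Hochberg adjusted p over all 10025 genes was under 0.05. In the same comparison 26.2% of all genes were higher and 38.7% lower. The median difference of the 44 was 1.22 log2 units, a 2.33-fold change, against -0.07 for all genes. Of the 44, 29 rose by at least 1 log2 unit, and 35 lay above the 95th percentile of all genes' differences (0.76). For 42 of the 44 the 3 γ+ arrays lay wholly above or wholly below the 3 control arrays, as they did for 66.6% of all genes.

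**Figure D1:**
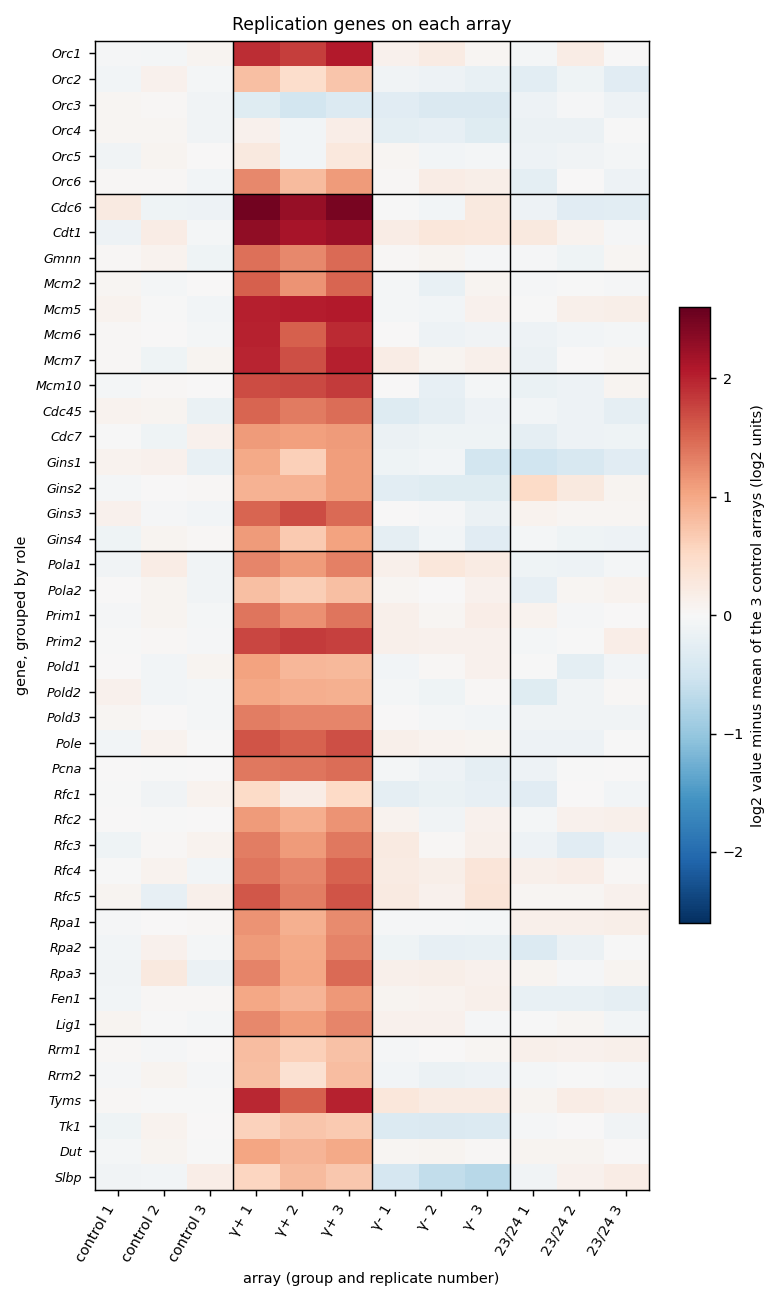
Log2 value of each of the 45 measured replication genes on each of the 12 arrays, minus that gene's mean over the 3 control arrays (colour, in log2 units), with genes grouped by role between horizontal lines. The γ+ columns are red for nearly every gene, Orc3 is pale blue in γ+ and γ-, and the γ- and 23/24 columns stay pale apart from single genes such as Gins1, Gins2, Tk1 and Slbp.

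The 6 ORC subunits, which bind origins, did not move as a block. Orc1, the large ATP-binding subunit, read 4.94, 4.92 and 5.03 on the control arrays, 6.88, 6.75 and 7.02 on the γ+ arrays, 5.07, 5.18 and 5.01 on the γ- arrays and 4.905, 5.16 and 4.975 on the 23/24 arrays. It rose by 1.92 ± 0.10 (SE) log2 units, the 37th largest rise of the 10025 genes (limma, adjusted p = 3.5e-11). Orc6 rose by 1.06 ± 0.10 (limma, adjusted p = 8.2e-08) and Orc2 by 0.65 ± 0.09 (limma, adjusted p = 4.9e-06). These 3 subunits had γ+ arrays wholly above the control arrays.

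Orc3, which belongs to the core of the complex, went the other way. It read 7.71, 7.70 and 7.58 on the control arrays, 7.35, 7.18 and 7.30 on the γ+ arrays, 7.37, 7.29 and 7.29 on the γ- arrays and 7.53, 7.64 and 7.53 on the 23/24 arrays. The γ+ and γ- arrays all lay below all control arrays, while the 23/24 arrays overlapped the controls. It was the only one of the 44 to fall under γ+, by 0.39 ± 0.07 log2 units (limma, adjusted p = 9.4e-05). The E2F word in its promoter, printed above, starts 95 bases before the start site.

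Orc4 and Orc5, both ATPase-family subunits, were the 2 genes not called. Orc4 read 7.95, 7.95 and 7.82 in control, 8.02, 7.84 and 8.08 in γ+, 7.65, 7.70 and 7.59 in γ- and 7.75, 7.75 and 7.90 in 23/24. Orc5 read 6.75, 6.93 and 6.87 in control, 7.10, 6.78 and 7.12 in γ+, 6.89, 6.79 and 6.80 in γ- and 6.71, 6.77 and 6.80 in 23/24. In both genes γ+ replicate 2 lay among the control values, so the groups overlapped. The γ+ difference was 0.07 for Orc4 (95% interval -0.08 to 0.23; limma, adjusted p = 0.40) and 0.15 for Orc5 (-0.03 to 0.34; limma, adjusted p = 0.13). Orc5 was called when arrays were centred on their medians (difference 0.24, adjusted p = 0.037), after quantile normalization (adjusted p = 0.038), with array weights (adjusted p = 0.0021) and without γ+ replicate 2 (adjusted p = 0.0035).

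**Figure D2:**
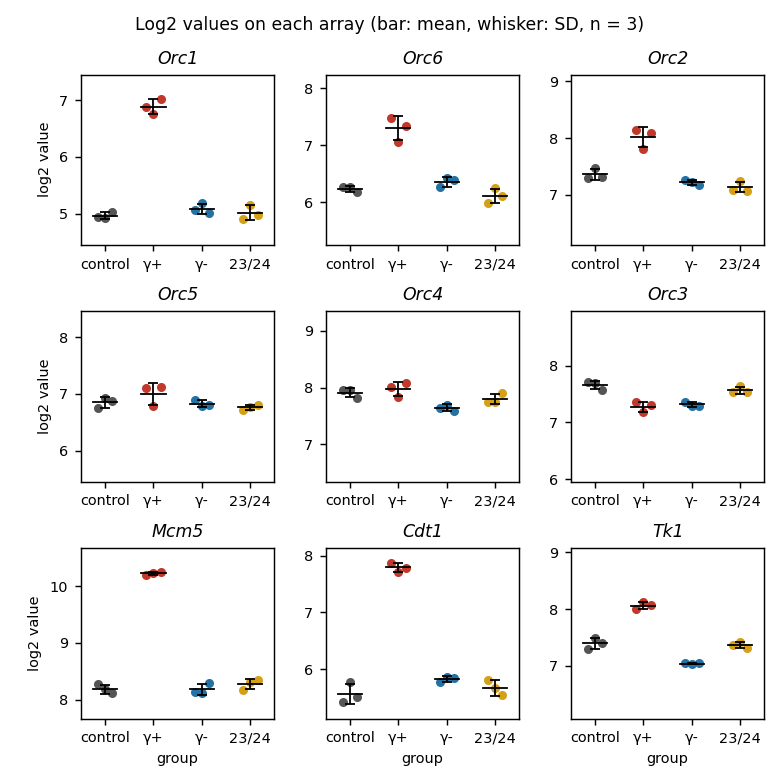
Log2 values (vertical axis, each panel spanning 3 log2 units) of the 6 ORC genes, Mcm5, Cdt1 and Tk1 on every array of the 4 groups, with the mean as a bar and the SD as whiskers (n = 3). Orc1, Orc6 and Orc2 stand clear of control in γ+, Orc5 and Orc4 overlap it, Orc3 lies below it in γ+ and γ-, and Tk1 lies above control in γ+ and below it in γ-.

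The licensing factors held the largest rises of the list. Cdc6, which loads the helicase onto ORC-bound DNA, read 6.58, 6.22 and 6.21 in control, 8.84, 8.60 and 8.81 in γ+, 6.33, 6.26 and 6.59 in γ-, and 6.195, 6.05 and 6.06 in 23/24. That rise of 2.41 ± 0.11 log2 units (5.33-fold; limma, adjusted p = 9.2e-12) was the 8th largest among all genes tested. Cdt1, its partner in loading, read 5.43, 5.77 and 5.51 in control, 7.87, 7.71 and 7.79 in γ+, 5.77, 5.86 and 5.85 in γ-, and 5.82, 5.66 and 5.54 in 23/24. The γ+ arrays stood alone, and the γ- arrays lay at or just above the highest control array. Cdt1 rose by 2.22 ± 0.10 (4.67-fold; limma, adjusted p = 6.1e-12). Geminin (Gmnn), the protein that binds and inhibits Cdt1, rose with them by 1.38 ± 0.07 (limma, adjusted p = 8.1e-11).

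All 4 measured subunits of the MCM2-7 ring rose, with a median of 1.87 log2 units. Mcm5, a ring subunit, read 8.27, 8.18 and 8.11 in control, 10.20, 10.23 and 10.25 in γ+, 8.13, 8.12 and 8.29 in γ-, and 8.17, 8.31 and 8.34 in 23/24. The γ+ arrays lay close together and far above the other 9, which overlapped one another. The rise of 2.04 ± 0.07 log2 units, 4.11-fold, had the lowest adjusted p of the 44 genes (limma, 2.2e-13). Mcm7 rose by 1.89 ± 0.09, Mcm6 by 1.84 ± 0.09 and Mcm2 by 1.41 ± 0.09. The printed E2F words of these 4 genes lie at various distances: next to the start in Mcm2 and Mcm5 and farther upstream in Mcm7 and Mcm6. Upstream of the printed stretch, Mcm5 holds further words that begin at -213 and -209 from the start site, and Mcm7 holds one at -233.

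The 7 genes of origin firing all rose, by 0.90 to 1.75 log2 units. Mcm10, which helps to activate the loaded helicase, read 6.44, 6.52 and 6.50 in control, 8.19, 8.21 and 8.30 in γ+, 6.49, 6.27 and 6.43 in γ-, and 6.31, 6.35 and 6.55 in 23/24. It rose by 1.75 ± 0.08 (limma, adjusted p = 1.1e-11). Gins3, of the GINS complex that travels with the helicase, read 6.84, 6.70 and 6.65 in control, 8.25, 8.42 and 8.20 in γ+, 6.74, 6.70 and 6.57 in γ-, and 6.82, 6.77 and 6.79 in 23/24. For both genes only the γ+ arrays stood apart. Gins3 rose by 1.56 ± 0.08 (limma, adjusted p = 2.3e-11), while the other 3 GINS subunits rose less, by 0.96 (Gins2), 0.95 (Gins4) and 0.90 (Gins1). Cdc45, which joins GINS and MCM2-7 in the active helicase, rose by 1.44, and the kinase Cdc7 by 1.09.

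The primase and polymerase genes rose in 8 of 8 cases, with a median of 1.26. Prim2, the large subunit of primase, which makes the RNA primers, read 6.92, 6.94 and 6.90 in control, 8.66, 8.74 and 8.69 in γ+, 7.05, 7.03 and 7.04 in γ-, and 6.87, 6.91 and 7.10 in 23/24. It rose by 1.78 ± 0.07 (limma, adjusted p = 1.1e-12), and its promoter window holds no E2F word. Pole, the catalytic subunit of the leading-strand polymerase epsilon, read 6.69, 6.85 and 6.76 in control, 8.40, 8.30 and 8.45 in γ+, 6.89, 6.87 and 6.85 in γ-, and 6.64, 6.64 and 6.75 in 23/24. All γ+ arrays of Prim2 and Pole were far above the rest. Pole rose by 1.62 ± 0.07 (limma, adjusted p = 3.9e-12). The subunits of primase and of polymerases alpha and delta rose by 0.73 (Pola2), 0.91 (Pold1), 0.96 (Pold2), 1.23 (Pola1), 1.30 (Pold3) and 1.32 (Prim1).

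PCNA, the sliding clamp that tethers polymerases to DNA, rose together with its loader. Pcna read 8.69, 8.67 and 8.70 in control, 10.07, 10.09 and 10.14 in γ+, 8.63, 8.55 and 8.45 in γ-, and 8.57, 8.68 and 8.71 in 23/24. The γ+ arrays lay far above the others, and the γ- arrays lay just below the 3 control arrays without passing the test (difference -0.14; limma, adjusted p = 0.15). The γ+ rise was 1.41 ± 0.06 (limma, adjusted p = 4.8e-12). Rfc4, a small subunit of the clamp loader, read 6.91, 7.02 and 6.85 in control, 8.31, 8.20 and 8.46 in γ+, 7.15, 7.08 and 7.24 in γ-, and 7.06, 7.10 and 6.96 in 23/24. It rose by 1.40 ± 0.08 (limma, adjusted p = 1.2e-10). The other small subunits, Rfc2, Rfc3 and Rfc5, rose by 1.07, 1.27 and 1.53. The large subunit Rfc1 rose by only 0.40 ± 0.09 (limma, adjusted p = 0.0011), the smallest rise among the 41 genes called higher.

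Replication protein A, which coats single-stranded DNA, rose in all 3 subunits on the probe sets used. Rpa1, the large subunit, read 7.99, 8.04 and 8.05 in control, 9.19, 8.94 and 9.24 in γ+, 8.002, 7.99 and 7.98 in γ-, and 8.16, 8.16 and 8.17 in 23/24. Its γ+ rise was 1.10 ± 0.07 (limma, adjusted p = 6.3e-10). The 23/24 arrays lay above all control arrays, by 0.14 on average, which was not called (limma, adjusted p = 0.58). Rpa2 read 7.36, 7.54 and 7.38 in control, 8.54, 8.42 and 8.71 in γ+, 7.31, 7.22 and 7.23 in γ-, and 7.07, 7.26 and 7.42 in 23/24. It rose by 1.13 ± 0.09 (limma, adjusted p = 1.3e-08) with its γ+ arrays clear of all others. Rpa3 rose by 1.25 on the probe set with the higher mean over the 12 arrays. Its other probe set averaged 5.85 in control, 6.16 in γ+, 5.30 in γ- and 5.46 in 23/24, a γ+ difference of 0.31. In control the other probe set was the brighter (5.85 against 5.36), and without the γ+ arrays it would have been chosen. The size of the Rpa3 rise therefore depends on the probe set.

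The 2 enzymes that finish Okazaki fragments rose by similar amounts. Lig1, the ligase that seals the nicks, read 7.39, 7.31 and 7.28 in control, 8.58, 8.42 and 8.60 in γ+, 7.45, 7.45 and 7.31 in γ-, and 7.31, 7.37 and 7.25 in 23/24. Its rise was 1.21 ± 0.07 (limma, adjusted p = 1.7e-10). Fen1, the flap endonuclease that trims the fragments, read 6.66, 6.77 and 6.76 in control, 7.74, 7.61 and 7.87 in γ+, 6.80, 6.82 and 6.87 in γ-, and 6.55, 6.54 and 6.50 in 23/24. The γ+ arrays stood highest. Among the rest the γ- arrays lay above and the 23/24 arrays below all control arrays. Fen1 rose under γ+ by 1.01 ± 0.07 (limma, adjusted p = 2.7e-09).

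Enzymes supplying deoxynucleotides rose in 5 of 5 cases, with a lower median of 0.73. Tyms, thymidylate synthase, read 9.04, 9.00 and 9.00 in control, 10.98, 10.57 and 11.02 in γ+, 9.30, 9.22 and 9.24 in γ-, and 9.08, 9.20 and 9.15 in 23/24. It rose by 1.85 ± 0.09 (limma, adjusted p = 1.9e-11), the largest difference within its role. Dut, the dUTPase that keeps uracil out of DNA, read 8.79, 8.91 and 8.83 in control, 9.88, 9.72 and 9.84 in γ+, 8.90, 8.91 and 8.87 in γ-, and 8.92, 8.92 and 8.85 in 23/24. Its rise was 0.97 ± 0.06 (limma, adjusted p = 2.1e-10). The ribonucleotide reductase subunits Rrm1 and Rrm2 rose by 0.73 and 0.66. Their other probe sets gave 4.25 in control and 4.06 in γ+ for Rrm1, a dim signal, and 8.72 and 9.57 for Rrm2.

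Thymidine kinase (Tk1), the salvage enzyme of S phase, moved in opposite directions under the 2 isoforms. It read 7.30, 7.50 and 7.40 in control, 8.001, 8.12 and 8.07 in γ+, 7.05, 7.03 and 7.05 in γ-, and 7.38, 7.42 and 7.31 in 23/24. The γ+ arrays lay above and the γ- arrays below every control array, and the 23/24 arrays lay among the controls. Tk1 rose under γ+ by 0.67 ± 0.07 (limma, adjusted p = 1.6e-07) and fell under γ- by 0.36 ± 0.07 (limma, adjusted p = 0.0051).

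Slbp, which binds the stem-loop of replication-dependent histone mRNAs, lay below the filter of 4.78. It read 3.92, 3.93 and 4.17 in control, 4.57, 4.83 and 4.70 in γ+, 3.57, 3.36 and 3.28 in γ-, and 3.91, 4.11 and 4.20 in 23/24. Its γ+ arrays lay above and its γ- arrays below all controls. With no filter applied its γ+ difference was 0.70 ± 0.12 (limma, adjusted p = 8.1e-05) and its γ- difference -0.60 ± 0.12 (limma, adjusted p = 0.0057).

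**Figure D3:**
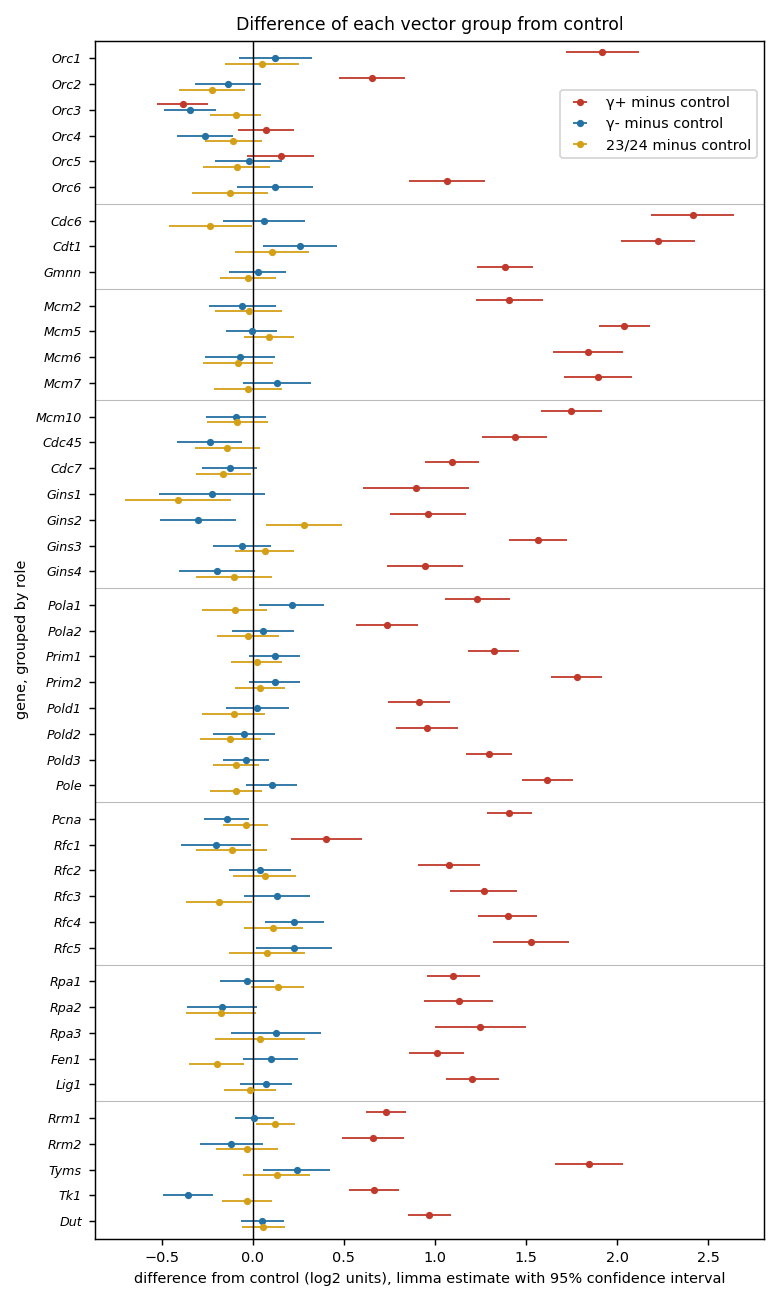
Difference of each vector group from control (log2 units, limma estimate with 95% confidence interval) for the 44 tested replication genes, grouped by role; red is γ+, blue γ-, yellow 23/24. The γ+ estimates run from -0.39 (Orc3) to 2.41 (Cdc6), while the γ- and 23/24 estimates stay between -0.41 and 0.28.

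One γ+ array read lower than its partners for most of these genes. Replicate 2 was the lowest of the 3 γ+ arrays for 35 of the 44 genes, and for 53.2% of all genes tested. Without it, 43 of the 44 genes were called, against 42 with it. Among the promoters read above, the 18 genes with an E2F word had a median γ+ difference of 1.34 (range -0.39 to 2.22). The 21 without one had a median of 1.06 (0.40 to 1.78), so both sets rose and overlapped widely. Only exact matches to the listed words were counted, so the 21 genes are not shown to lack other forms of an E2F site.

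**Figure D4:**
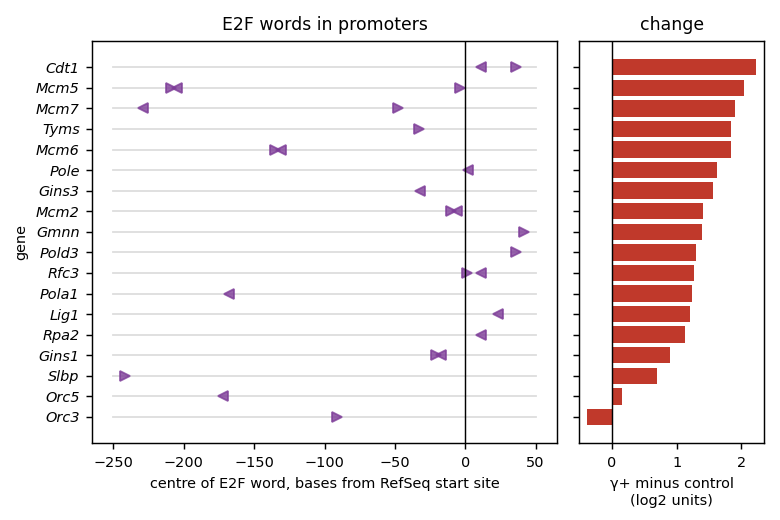
Left, position of each E2F word (triangles, pointing right for the plus and left for the minus orientation of the gene) in bases from the RefSeq start site for the 18 genes that hold one; right, the γ+ minus control difference of the same genes (log2 units; Slbp lay below the filter). Words cluster around the start in 13 genes, and the genes with distant words include both large rises (Mcm6) and the fall of Orc3.

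Marker lists of every cell type measured had lower mean levels in the same γ+ cultures, where 38.7% of all genes were called lower. Cardiomyocyte markers fell in 9 of 10 cases, with the list's mean log2 level at 10.57 to 10.58 on the γ+ arrays against 11.64 to 11.68 in control. Fibroblast markers fell in 9 of 9 (8.15 to 8.30 against 9.60 to 9.62), smooth muscle markers in 5 of 5 (8.84 to 8.85 against 9.78 to 9.83) and endothelial markers in 6 of 6 (5.56 to 5.68 against 6.46 to 6.50). Macrophage markers fell in 3 of the 5 tested, their list of 8 going from 5.55 to 5.59 down to 5.29 to 5.36. Of the 8 macrophage markers, 3 lay below the filter. Fewer cells of a type and less RNA per cell cannot be told apart in these arrays, and the part of cell composition in the rise of the replication genes was not tested.

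Other genes of replication and S-phase entry were counted from lists of known function. Of 31 tested replication accessory genes, 27 rose under γ+ (87.1%) and 0 fell, with a median of 1.17. Over all genes 26.2% were higher and 38.7% lower in this comparison. The lowest adjusted p values belonged to Mtbp, a partner of the origin-firing factor treslin (rise 1.78), Clspn, the checkpoint adaptor claspin (1.95), and Nasp, a histone chaperone (1.46). Of 19 further nucleotide-supply genes 11 rose (57.9%) and 3 fell (15.8%, below the share of all genes). The deoxycytidine kinase Dck rose by 2.40, the serine hydroxymethyltransferase Shmt1 by 1.35 and the dCMP deaminase Dctd by 1.28. The mitochondrial deoxyguanosine kinase Dguok fell by 0.82, Nme2 by 0.56 and the p53-inducible reductase subunit Rrm2b by 0.20.

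Of 30 S-phase entry genes, 23 rose (76.7%) and 5 fell (16.7%), with a median of 0.68. The shares of all genes were 26.2% and 38.7%. Cyclin E genes, whose products drive entry into S phase with Cdk2, rose by 2.998 (Ccne2) and 2.15 (Ccne1), and the E2F repressor E2f7 rose by 2.35. The 5 that fell were the G1 cyclins Ccnd1 (-2.06) and Ccnd2 (-1.24), Myc (-0.97), the cyclin D partner Cdk6 (-0.97) and E2f5 (-0.22). Mki67, a proliferation marker, was not analysed here.

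Under γ- few of the replication genes were called different from control. Of the 44, 0 rose and 3 fell (Orc3, Orc4 and Tk1), where 3.06% of all genes were higher and 3.88% lower. The median difference was 0.00 log2 units, and the estimates ran from -0.36 (Tk1) to 0.26 (Cdt1). The γ- arrays lay wholly above or below the controls for 14 of the 44 genes (31.8%), against 33.4% of all genes, so this share was near the background. Orc3 fell by 0.34 ± 0.07 (limma, adjusted p = 0.0072) and Orc4 by 0.26 ± 0.07 (limma, adjusted p = 0.042), and the Tk1 fall is given above. Orc4 was not called with arrays centred on their medians (adjusted p = 0.11), nor with no intensity trend (0.0505), nor without control replicate 1 or 2, any γ- replicate or 23/24 replicate 2 (adjusted p = 0.058 to 0.15).

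The 7 origin-firing genes all had negative γ- estimates, from -0.06 (Gins3) to -0.30 (Gins2), and none of the 7 passed the test. Negative estimates were found for 22 of the 44 genes and for 5358 of all 10025. Under other settings Gins2 was called with array weights (adjusted p = 0.026), with the 6 compared arrays alone (0.037), without γ+ replicate 2 (0.043) and without 23/24 replicate 1 (0.043). Cdc45 was called with array weights (adjusted p = 0.013), without control replicate 3 (0.047) and without γ+ replicate 2 (0.046). Clamp, loader and polymerase genes lay on both sides of 0, as with Rfc4 at 0.23 (limma, adjusted p = 0.084) and Pcna at -0.14. Array weights, the 6 compared arrays alone and the fit without γ+ replicate 2 each called Rfc4 (adjusted p = 0.026 to 0.044) and Tyms (0.0011 to 0.0047), both higher in γ-, and quantile normalization called Rfc4 (0.048). The typical 95% interval reached 0.17 log2 units to each side, so differences within that width were not resolved. Larger ones could also miss the adjusted threshold, as Cdt1 did (0.26, limma adjusted p = 0.11). Without γ+ replicate 2, which enters through the shared estimate of spread, 8 of the 44 were called (2 higher, 6 lower), and 1665 of the 10025 genes.

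Over all genes 3.06% were higher and 3.88% lower under γ-, and the counts that follow rest on short lists. From the other lists, Clspn rose by 0.29 and the RNase H2 subunit Rnaseh2b fell by 0.35 among 31 accessory genes (3.23% each way). Rrm2b fell by 0.30 among 19 nucleotide-supply genes (5.26%). The counts of both lists were near the shares of all genes. Of the 30 S-phase entry genes, the CDK inhibitor Cdkn1a rose by 0.53 and Ccne2 by 0.35, while Myc fell by 0.35 and the CDK inhibitor Cdkn2c by 0.27. Of the marker genes, 1 of 10 cardiomyocyte genes was higher, and 1 of 9 fibroblast, 2 of 6 endothelial and 1 of 5 macrophage genes were lower.

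In the 23/24 cultures no replication gene was called different from control. The count was 0 of 44, and over all genes 0% were higher and 0% lower by limma's adjusted p. At an unadjusted p under 0.05, 8 of the 44 differed (2 higher, 6 lower), against 8.97% of all genes. The 23/24 arrays lay wholly above or below the controls for 12 of the 44 (27.3%), against 17.9% of all genes. The median difference was -0.04 log2 units, beside -0.02 for all genes. With array weights 1 of the 44, Gins1, was called, and 220 of all genes.

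Both ends of that narrow range were GINS subunits. Gins1 read 5.34, 5.38 and 5.06 in control, 6.24, 5.87 and 6.36 in γ+, 5.14, 5.19 and 4.78 in γ-, and 4.74, 4.85 and 4.96 in 23/24. All 23/24 arrays lay below all control arrays, by 0.41 on average (95% interval -0.70 to -0.12; limma, adjusted p = 0.41). Gins2 read 5.53, 5.61 and 5.63 in control, 6.49, 6.48 and 6.68 in γ+, 5.32, 5.27 and 5.28 in γ-, and 6.09, 5.85 and 5.67 in 23/24. Its 23/24 arrays lay above all control arrays, by 0.28 on average (95% interval 0.07 to 0.49; limma, adjusted p = 0.43). Of the genes with the largest γ+ rises, Mcm5 differed from control by 0.09 under 23/24, Cdt1 by 0.11 and Cdc6 by -0.23, none of them called.

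**Figure D5:**
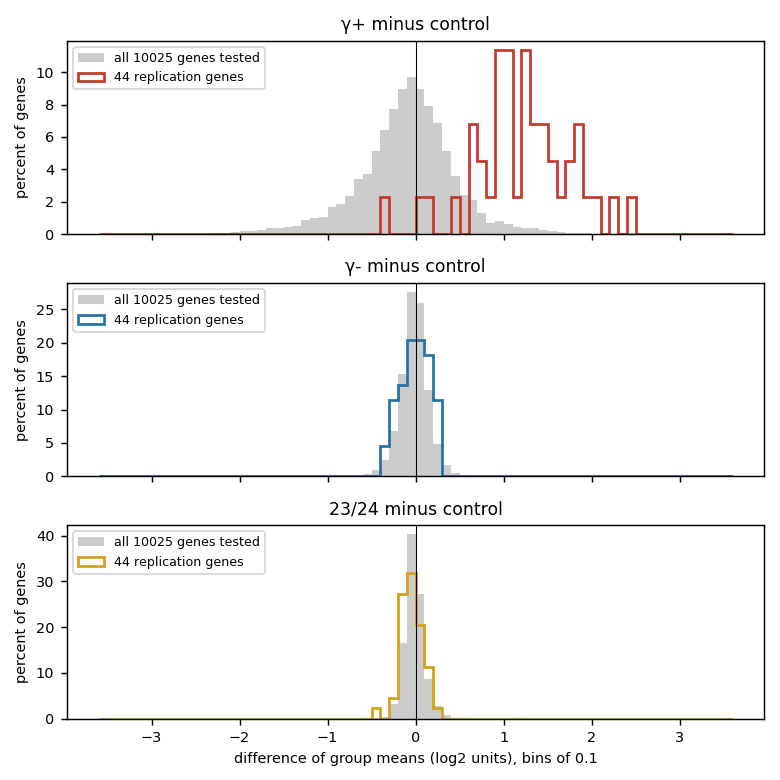
Percent of genes by difference from control (log2 units, bins of 0.1) for all 10025 genes tested (grey) and the 44 replication genes (coloured outline), for γ+, γ- and 23/24. Under γ+ the replication genes sit to the right with a median of 1.22 against -0.07, and under γ- and 23/24 they lie on top of the other genes around 0.

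The 2 isoforms were also compared directly, and these comparisons share the γ+ arrays with the one against control. Against γ-, 42 of the 44 genes were higher in γ+ and 0 lower, with 26.7% of all genes higher and 37.5% lower, and the median difference was 1.16. The 2 genes not called were Orc3 (-0.04, 95% interval -0.18 to 0.10; limma, adjusted p = 0.61) and Orc5 (0.18, -0.01 to 0.36; limma, adjusted p = 0.087). Orc5 was called here with arrays centred on their medians (adjusted p = 0.032), after quantile normalization (0.036), with array weights (0.00077) and without γ+ replicate 2 (0.0018). Orc4 was higher in γ+ than in γ- by 0.33 ± 0.07 (limma, adjusted p = 0.00078), and Tk1 by 1.02 ± 0.07 (limma, adjusted p = 8.7e-10). Cdc6 differed by 2.35, Mcm5 by 2.05 and Cdt1 by 1.96.

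Against 23/24, 43 of the 44 were higher in γ+ and 1, Orc3, was lower, with 28% of all genes higher and 37.9% lower. The median difference was 1.29, and Cdc6 reached 2.65 ± 0.11 (limma, adjusted p = 3.7e-12). Orc3 was lower by 0.29 ± 0.07 (limma, adjusted p = 0.0011), but not with arrays centred on their medians (-0.15, adjusted p = 0.11). That centring moved the median of all genes from -0.07 to 0.07 here and turned the split of calls from 2804 higher and 3795 lower to 3703 higher and 2628 lower. Orc4 (0.18; limma, adjusted p = 0.041) and Orc5 (0.24; limma, adjusted p = 0.022) were also called, and neither was called in the fit of the 6 compared arrays alone (adjusted p = 0.085 and 0.055). Both were also lost without γ+ replicate 1, γ+ replicate 3 or 23/24 replicate 1, and Orc4 without γ- replicate 1 or 23/24 replicate 2 (adjusted p = 0.051 to 0.17 over these fits).

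Between γ- and 23/24 only single replication genes differed. Of the 44, 3 were higher in γ- and 3 lower, against 4.16% and 3.94% of all genes, and the median was 0.06. Gins2 was lower in γ- by 0.58 ± 0.10 (limma, adjusted p = 0.0030), the largest of the 6, and Tk1 by 0.33 ± 0.07 (limma, adjusted p = 0.0076). These 2 were called in each of the 12 fits without 1 array. Orc3 was lower by 0.25 ± 0.07 (limma, adjusted p = 0.032), but not with arrays centred on their medians (-0.19, adjusted p = 0.15).

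The 3 genes higher in γ- were Pola1, Rfc3 and Fen1 (6.82% of the 44, against 4.16% of all genes). Of the 12 fits without 1 array, Pola1 and Fen1 were called in 6 each and Rfc3 in 7. Pola1, the catalytic subunit of polymerase alpha, read 6.45, 6.74 and 6.46 in control, 7.82, 7.66 and 7.87 in γ+, 6.69, 6.85 and 6.75 in γ-, and 6.43, 6.41 and 6.50 in 23/24. Rfc3, of the clamp loader, read 6.97, 7.11 and 7.18 in control, 8.42, 8.19 and 8.46 in γ+, 7.32, 7.11 and 7.22 in γ-, and 6.96, 6.79 and 6.96 in 23/24. In both the γ- arrays lay above all 23/24 arrays, with control arrays spread between or across them. The γ- minus 23/24 difference was 0.31 ± 0.08 for Pola1 (limma, adjusted p = 0.033), 0.32 ± 0.09 for Rfc3 (limma, adjusted p = 0.033) and 0.30 ± 0.07 for Fen1 (limma, adjusted p = 0.020). Only 2 or 3 of the 44 were called when any 1 of the 6 compared arrays was left out (263 to 529 of all genes), and 11 without γ+ replicate 2 (1838 of all genes).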

How the data were processed

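The deposited values, one table for all arrays, are log2 intensities by their range, since the log base is not stated. MAS5, without a version, is the only tool in the submitters' processing notes; how the authors corrected background and normalized is not given in the sources used here. Of 28826 probe sets, 15209 carry 1 gene symbol in the platform annotation, 306 several and 13311 none; 15178 of the single symbols matched a RefSeq entry (GRCr8). The brightest probe set stood for a gene, and probe sets below the 40th percentile of mean intensity (4.78) were left out, leaving 10025 genes.

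Groups come from the sample labels. All 12 arrays entered one fit in R 4.3.3 with limma 3.58.1 (lmFit with group means, eBayes with an intensity trend, 8 residual degrees of freedom), with 6 comparisons and Benjamini-Hochberg adjustment over all genes in each, after the scripts were tested on simulated data. Array number limits the precision: 3 a group. Members and lists were chosen with earlier results of these data known. Values on every array are given for the 2 genes with the lowest adjusted p in γ+ against control of each of these roles: licensing (ORC, Cdc6, Cdt1, Gmnn and MCM2-7 as 1 role), firing, primase and polymerases, clamp and loader, RPA, fragment processing, and nucleotide supply; for genes called in another comparison with control or between γ- and 23/24, and for genes against their role's direction or not called; Cdc6, Orc1 and Gins1 were added after their values were seen. Of each further list, the 3 lowest adjusted p and up to 3 minority calls are named, and all 5 falls of the last list after they were seen. Each array's deviations from its group mean were correlated with those of arrays sharing its number. Of 18 such pairs, 1 had deviations correlated above 0.1 (range -0.22 to 0.12), so numbers were not taken as pairs. Alternatives were scaling, filter, probe set choice, variance model, weights, block, arrays fitted, a minimum change and leaving out each array.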

Additional observations from a re-analysis of the deposited data

How the results depend on the processing

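Across the alternatives no called replication gene changed direction. The counts of the 44 called stayed within 1.5 times the reported ones in the 3 comparisons of γ+, except when a change above 1 log2 unit was required, which left 19 (against control), 17 (against γ-) and 23 (against 23/24), and 516, 467 and 489 of all genes. The same minimum left 0 of the 44 and 0 of all genes in γ- against control and against 23/24. With array weights, γ- against control gave 8 of the 44 and 1745 of all genes, 23/24 against control 1 and 220, and γ- against 23/24 13 and 2528. With the 6 compared arrays alone, γ- against control gave 7 and 1373, and γ- against 23/24 gave 1760 of all genes. For all genes, γ- against control gave 436 with median centring, 1363 with no filter and 425 with the 60th percentile filter; γ- against 23/24 gave 1641 with no filter and 488 with the 60th percentile filter; quantile normalization gave 1 in 23/24 against control. Median centring also changed the share of higher calls from 40.4% to 51.2% in γ+ against control and from 51.4% to 77.9% in γ- against 23/24. Leaving out 1 array gave 42 to 43 of the 44 (6005 to 6682 of all genes) in γ+ against control, 2 to 8 (267 to 1665) in γ- against control, 0 to 0 (0 to 58) in 23/24 against control, 42 to 43 (5946 to 6641) in γ+ against γ-, 42 to 44 (6069 to 6859) in γ+ against 23/24 and 2 to 11 (263 to 1838) in γ- against 23/24. With the replicate number as a block, 42, 2, 0, 42, 43 and 5 of the 44 were called in these 6 comparisons, the lost calls being Orc4 in γ- against control (adjusted p = 0.069) and in γ+ against 23/24 (0.058) and Pola1 in γ- against 23/24 (0.052); samples with one number did not deviate together, with 3 of 18 pairs best matched to their own number. The cause of these shifts was not tested. With 3 arrays a group, the typical 95% interval of a difference reached 0.17 log2 units to each side, and the widest of the 44 was that of Gins1.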

Other observations

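E2F words were also counted outside the replication genes. Among 317 other tested genes with an E2F word in the promoter window, 161 (50.8%) were higher and 82 (25.9%) lower in γ+ than in control, with a median difference of 0.18 log2 units. Among 7964 other tested genes without one, 2062 (25.9%) were higher and 3042 (38.2%) lower, with a median of -0.07. Of 117 tested genes with a MEF2 element in the window, 31 (26.5%) were higher and 54 (46.2%) lower. These shares are descriptions of promoter windows and carry no test.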
